A study of Arabidopsis thaliana with 4 samples.

Results

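The plastid genome carries its own genes for making and maintaining proteins, and 40 of them are described here in aerial organs of Arabidopsis, from the otp90 line and the wild type. The 40 gene models were chosen by the function of their products, and no measured value enters that rule, from the 33602 models counted in each library. They comprise 4 subunits of the plastid-encoded RNA polymerase, 1 intron maturase, 26 models of ribosomal proteins, 1 protease subunit, 1 fatty acid synthesis subunit, 3 models of the large reading frames ycf1 and ycf2, and 4 genes for assembling photosynthetic complexes or cytochromes. Of the 40, 32 had enough counts for a test, and the other 8 were both copies of rpl2, rpl23, rps7 and ycf2.

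Chloroplasts transcribe their genome with a bacterial-type polymerase, PEP, whose core is encoded in the plastid, and with a phage-type polymerase, NEP, encoded in the nucleus. PEP reads most photosynthesis genes strongly in green leaves, while NEP is known for reading housekeeping genes such as the rpoB operon, accD, clpP and ycf2. The plastid ribosome is of the bacterial type, and its proteins are encoded partly in the plastid and partly in the nucleus. The large inverted repeat of the plastid genome holds its genes in 2 identical copies.

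RNA came from aerial organs at Boyes stage 1.09, from untreated plants on soil at 18 to 21 °C with at most 90 µE of light. The otp90 group had 2 libraries, all from the knock-out line SM_3_29659, so 1 line stands for the mutant. The control group had 2 libraries of the wild type Col-0. Libraries were depleted of rRNA, stranded, sized at 230 bp and read single-end on an Ion Proton. Whether the replicates are different plants is not stated in the labels, so the p-values rest on a spread that may be technical only. The mutated gene itself was not analysed here.

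The libraries held 1489112 to 2685718 counted reads, of which 15006 to 32891 fell on the 40 genes. Per the file headers, reads whose best alignments tied were removed before counting, which took 79.9% to 87.0% of the mapped reads. Leaf markers for the small subunit of Rubisco, Rubisco activase and 3 antenna proteins were abundant, at 484 to 11510 CPM, which are read counts scaled to a common library size. All 3 flower markers and all 3 seed markers stayed at or below 2.22 CPM in each library. Among the 3 root markers, PYK10, a beta-glucosidase abundant in roots, lay at 17.2 to 89.4 CPM, while DR4 and XTH14 stayed at or below 8.0 CPM. The part of root RNA in the results was not tested.

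Reads with tied alignments were removed before counting, so 4 reading frames that differ in how much of them is repeated are printed first, from the RefSeq TAIR10.1 plastid genome, coding strand, 5′ to 3′. The first exon of rps12 lies outside the inverted repeat, and its later exons are annotated in both copies of the repeat, with identical sequence. In the rps12 3′ part, capitals mark the last exon, and in rps19, capitals mark the bases that occur again in the other copy of the repeat. The whole of rpl23 is repeated.
rps12 5′ part: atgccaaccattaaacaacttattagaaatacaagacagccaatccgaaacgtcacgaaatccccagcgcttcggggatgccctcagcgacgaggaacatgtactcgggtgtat
rps12 3′ part: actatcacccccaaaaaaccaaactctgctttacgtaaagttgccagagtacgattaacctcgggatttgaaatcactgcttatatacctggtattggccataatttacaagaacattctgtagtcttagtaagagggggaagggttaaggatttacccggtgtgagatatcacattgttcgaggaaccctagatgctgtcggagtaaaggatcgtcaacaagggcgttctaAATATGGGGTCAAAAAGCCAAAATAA
rps19: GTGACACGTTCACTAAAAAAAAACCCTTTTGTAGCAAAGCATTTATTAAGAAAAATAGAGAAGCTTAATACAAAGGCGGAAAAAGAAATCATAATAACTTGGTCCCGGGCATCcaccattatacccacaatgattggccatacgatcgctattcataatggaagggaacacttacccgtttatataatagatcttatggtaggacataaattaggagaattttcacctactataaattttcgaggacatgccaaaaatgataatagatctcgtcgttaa
rpl23: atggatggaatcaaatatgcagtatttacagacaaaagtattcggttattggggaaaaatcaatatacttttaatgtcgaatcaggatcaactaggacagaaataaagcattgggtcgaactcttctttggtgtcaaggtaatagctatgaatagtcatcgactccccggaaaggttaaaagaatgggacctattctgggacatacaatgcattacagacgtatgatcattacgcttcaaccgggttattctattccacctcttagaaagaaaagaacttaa

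Of the 10 models inside the repeat, 7 had no counts at all. Both copies of rpl2, which encodes a protein of the large ribosomal subunit, were listed at 0 in all 4 libraries, as were both copies of rps7, a small subunit gene, and of ycf2, the largest plastid reading frame. Copy 1 of rpl23 was at 0 throughout, and copy 2 held 0 and 1 counts in otp90 and 0 and 2 counts in Col-0. The copies of each of these genes are 100% identical, over 825 bases in rpl2, 282 in rpl23, 468 in rps7 and 6885 in ycf2. Because tied reads were removed before counting, a value of 0 in these 8 models cannot be read as the amount of RNA. Whether that removal gave the low counts was not tested. A count of 0 allows up to 3 counts, which is 1.2 to 2.4 CPM in these libraries, and this floor covers counting error only.

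The mRNA for rps12, a protein near the decoding centre of the small subunit, is joined by trans-splicing from separately transcribed parts. Its 5′ part held 468 and 512 counts in otp90 and 1006 and 357 counts in Col-0. Copy 2 of the 3′ part held 182 and 236 counts in otp90 and 527 and 187 counts in Col-0, whereas copy 1 held 10 and 16 counts in otp90 and 28 and 16 counts in Col-0. In each library copy 2 thus exceeded copy 1, although the printed 258 bases are identical in both. What gave 1 copy more counts than the other was not tested.

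The 2 genes that straddle the edge of the repeat are repeated in part only, and where in them the counted reads fell was not examined. In rps19, 113 of 279 bases are repeated, and in ycf1, 1030 of 5361 bases are. Windows of 50 bases found again elsewhere in the plastid genome made up 27.8% of rps19, 18.5% of ycf1 and 100% of the 10 models inside the repeat, and there were none in the other 28 models. Some members also share windows with the nuclear genome, at 16.01% of those in rps2, 7.20% in rpoC2 and 7.14% in ccsA. The shares were 4.42% in ycf1 and 2.02% in rpoA, and 0.951% in the untested ycf2. Windows matched the mitochondrial genome at 3.75% in ycf1 and 3.38% in rpoB. Levels of these genes may be undercounted.

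**Figure D1:**
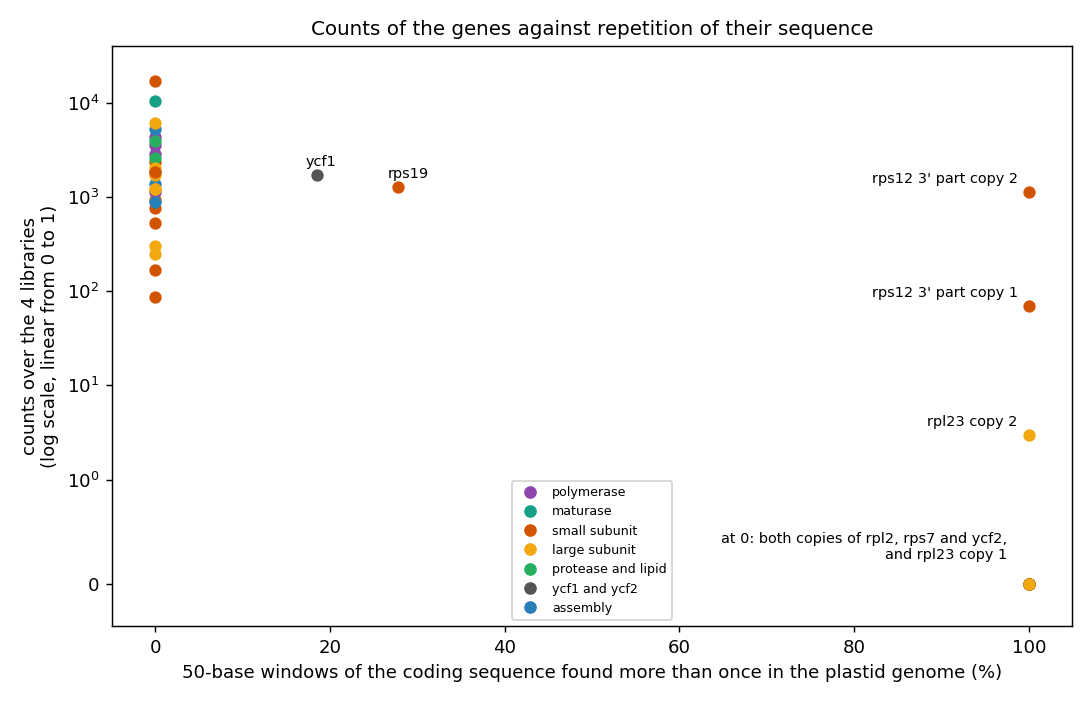
Each point is 1 gene model, coloured by role, with the percent of its 50-base windows that occur again in the plastid genome on the x axis and its counts summed over the 4 libraries on the y axis (log scale, linear from 0 to 1). The models at 100% lie at 0 to 3 counts, except the copies of the rps12 3′ part at 70 and 1132, while rps19 at 27.8% held 1288.

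Levels are compared between genes as CPM per kilobase of the deposited gene model, averaged over the 4 libraries. The most abundant member was rps14 (ATCG00330), a small subunit protein gene read together with the photosystem I genes psaA and psaB, at 12588 and 4940 in otp90 and 8870 and 4760 in Col-0. Its lowest library lay above the highest library of the next gene, the rps12 5′ part, whose mean was 2758. Below it came rpl16 at 1924, ycf4 at 1285, rpl32 at 1044, matK at 881 and clpP at 879. The ranges of neighbouring genes in this order overlapped, from the rps12 5′ part down to rps15. Compared within each library, some neighbours still kept their order. The rps12 5′ part lay above rpl16, rpl16 above ycf4 and rpl32 above matK in all 4 libraries. In contrast, ycf4 lay above rpl32 in 3 libraries and matK above clpP in 2.

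The 4 polymerase genes lay low in this order, with rpoC1 at 240, rpoA at 153, rpoC2 at 143 and rpoB at 120 CPM per kilobase. The lowest tested members were rps15 at 86.5, rps16 at 47.0, ycf1 at 40.6 and copy 1 of the rps12 3′ part at 35.6. Copy 1 is identical in sequence to copy 2, which stood at 571, so the level of either copy is uncertain. The length used for ycf1 includes its 1030 repeated bases. The lowest library of rps15 lay above the highest of rps16. Gene models shorter than the 230 bp library size, such as the 114 bases of rpl36 and of the rps12 5′ part, have uncertain levels per length. The deposited models of 2 genes differ in length from the RefSeq coding sequence, at 1581 against 1515 bases in matK and 381 against 507 bases in ycf3.

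**Figure D2:**
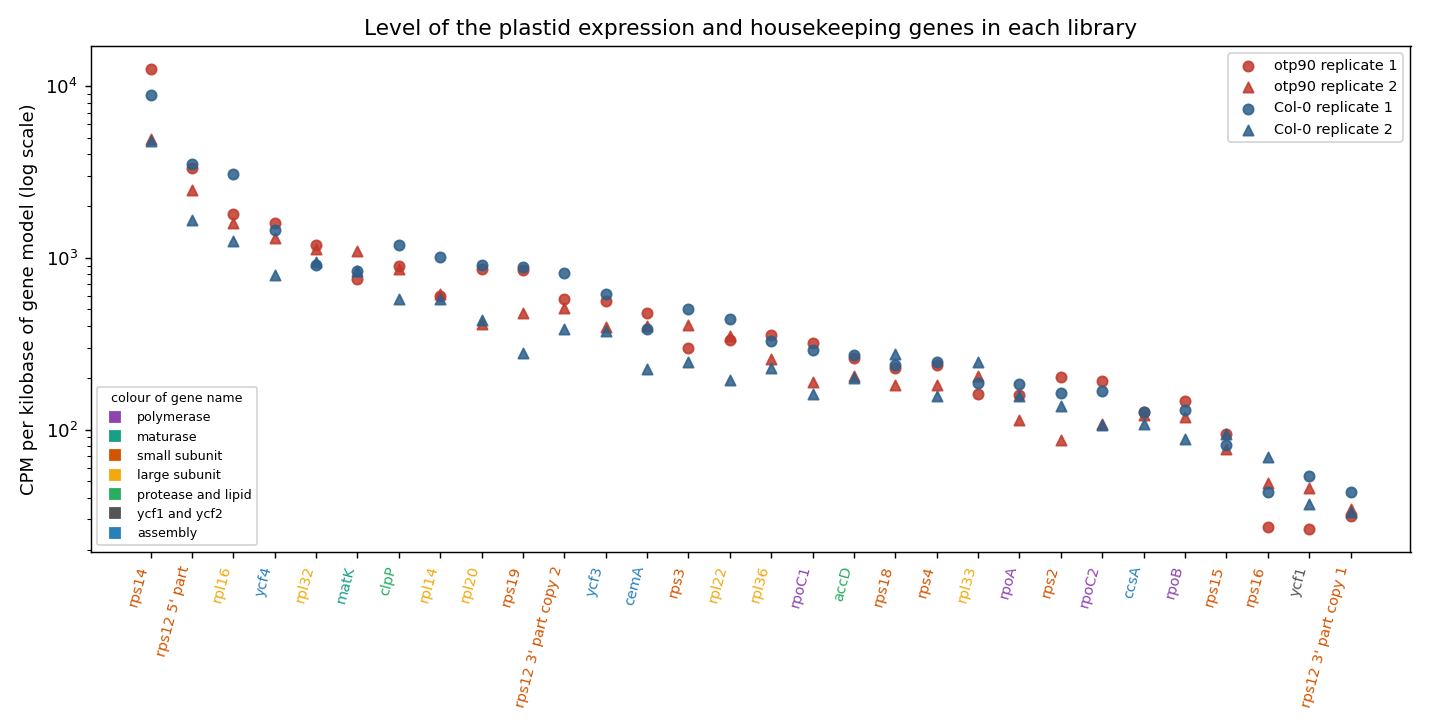
Level of counted members in each library, in CPM per kilobase (log axis), with genes ordered by their mean, points coloured by genotype and names coloured by role. The 4 points of rps14, between 4760 and 12588, stand above those of the other members, and the genotypes overlap in 29 of the 32 tested members.

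As a whole, the 40 genes took 3.11% and 3.17% of the plastid counts outside rRNA in otp90 and 3.90% and 3.19% in Col-0. The means were 3.14% ± 0.0463 and 3.55% ± 0.503 (SD, n = 2 each), and Col-0 replicate 1 was the highest library. The Wilson 95% interval of that library ran from 3.86% to 3.94%, and that of the lowest, otp90 replicate 1, from 3.06% to 3.16%, for counting error only. Plastid genes themselves took 37.9% and 31.6% of counts outside rRNA in otp90 and 33.7% and 27.3% in Col-0, which overlap (exact two-sided permutation test, p = 0.667, with 0.333 the smallest p possible). In bulk RNA, fewer cells of a type and less RNA per cell cannot be told apart.

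Set against the 45 photosynthesis and NDH dehydrogenase genes of the same genome, the members gave 3.35 and 3.48 reads per 100 photosynthesis reads in otp90 and 4.30 and 3.51 in Col-0. Both otp90 libraries lay below both Col-0 libraries, otp90 replicate 2 only just. Without psbA, the photosystem II reaction centre gene, the ratios were 4.84 and 5.34 in otp90 and 5.96 and 6.05 in Col-0. Together, rbcL, the Rubisco large subunit gene, and psbA took 61.3% to 71.4% of the plastid counts outside rRNA. In otp90, rbcL had 138129 and 121323 CPM, and in Col-0 133501 and 76816 CPM, and it was kept in both ratios. Whether the genotypes stay apart without rbcL was not tested. No test was applied to these ratios.

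The question of the design was how the transcriptome of the otp90 line differs from that of Col-0. None of the 32 tested members passed edgeR's quasi-likelihood test, with an adjusted p of 0.9998 for each (Benjamini-Hochberg over 11938 genes), and none had an unadjusted p under 0.05. The background was also empty, with 0% of all genes called and 1.41% at an unadjusted p under 0.05. DESeq2 called 0 genes as well, and 96 genes had an unadjusted p under 0.05 there. Of the 32, 14 had a positive log2 fold change (otp90 minus Col-0) and 18 a negative one, where 49.2% of all genes were positive and 50.8% negative. Their median was −0.03, against −0.01 over all genes, and single values ran from −0.54 in rps16 to 0.52 in cemA.

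Genotypes did not overlap in 3 of the 32 members, cemA and rpl32 with otp90 above and rps18 with otp90 below. That share of 9.38% stands beside 25.9% of all genes. Over all genes, otp90 was above in 12.4% and below in 13.5%. The median moved with single libraries, to 0.43 when Col-0 replicate 1 was left out and −0.22 when Col-0 replicate 2 was. Leaving out otp90 replicate 1 gave −0.15, and leaving out otp90 replicate 2 gave 0.15.

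**Figure D3:**
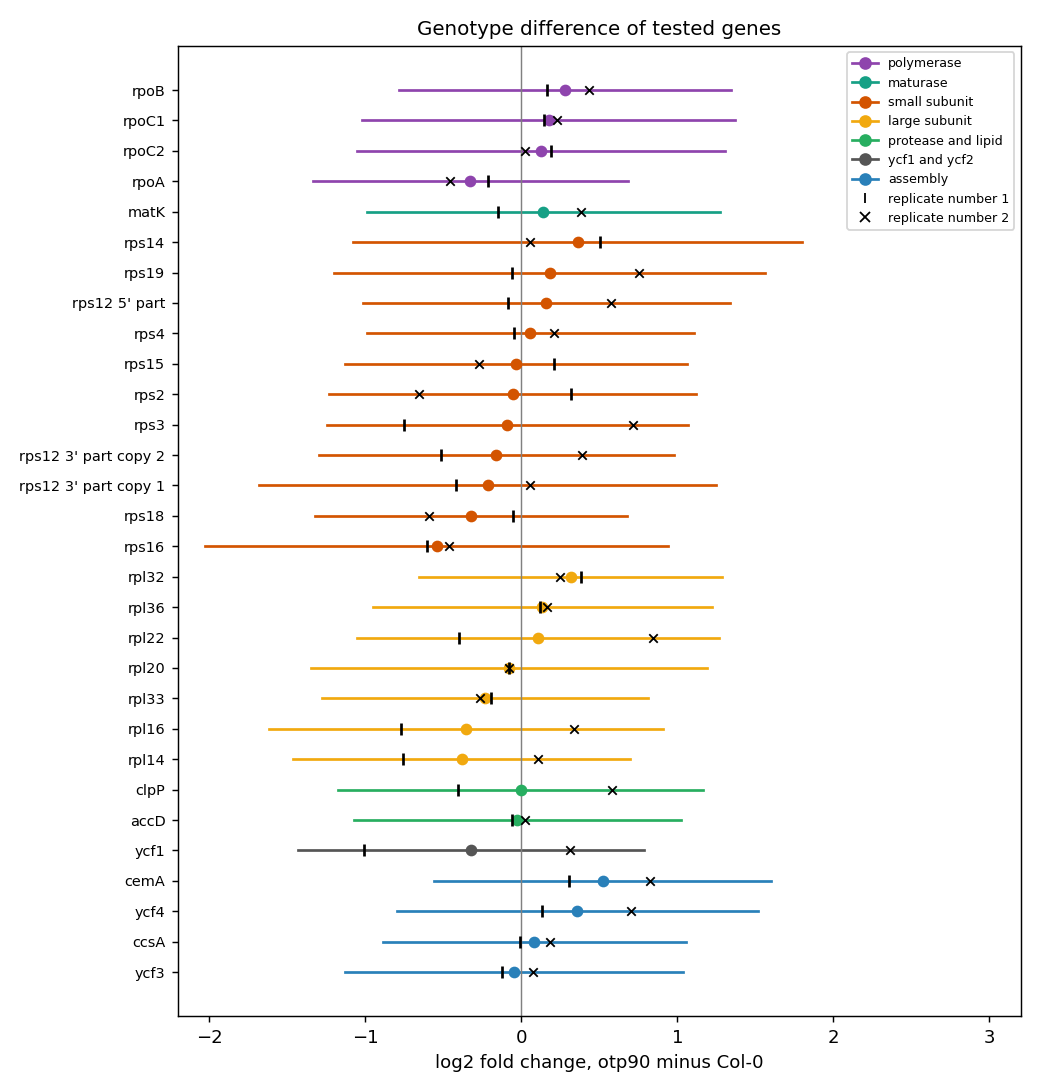
Log2 fold change of tested members, otp90 minus Col-0, as a point with its 95% interval as a line and coloured by role. Bars and crosses give the log2 ratio within the libraries numbered 1 and numbered 2, and every interval includes 0.

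The core of PEP consists of an alpha subunit, rpoA, which assembles the enzyme, and the beta, beta′ and beta″ subunits rpoB, rpoC1 and rpoC2, which form the catalytic body. The gene rpoB (ATCG00190) had 469 and 382 CPM in otp90 and 418 and 283 CPM in Col-0. Its genotypes overlapped, with the highest library in otp90 and the lowest in Col-0, and its log2 fold change was 0.28 (SE 0.47, adjusted p = 0.9998, edgeR). Next to it, rpoC1 (ATCG00180) had 654 and 384 CPM in otp90 and 592 and 327 CPM in Col-0. In this gene the libraries numbered 1 were high and those numbered 2 low in both genotypes, with a log2 fold change of 0.18 (SE 0.53).

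The same order held for rpoC2 (ATCG00170), at 789 and 445 CPM in otp90 and 691 and 439 CPM in Col-0. Its log2 fold change was 0.13 (SE 0.52), and the numbered pairs again separated more than the genotypes. For rpoA (ATCG00740), transcribed at the end of a ribosomal protein cluster, the values were 157 and 112 CPM in otp90 and 182 and 155 CPM in Col-0. Both numbers gave a negative log2 ratio for rpoA, −0.21 and −0.46, and the fold change was −0.33 (SE 0.44), with overlapping genotypes. The 3 genes of the rpoB operon were positive within both numbers, but turned negative when libraries were scaled on the plastid photosynthesis genes, to −0.024 in rpoB, −0.15 in rpoC1 and −0.21 in rpoC2. That scaling put the median of all genes at −0.32. Without a scaling factor, where the median of all genes was −0.12, rpoC2 was also negative, at −0.0011. The median of the 3 genes was −0.24 when otp90 replicate 1 was left out and −0.15 when Col-0 replicate 2 was, against 0.50 when otp90 replicate 2 was left out and 0.61 when Col-0 replicate 1 was.

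The maturase gene matK (ATCG00040), whose product helps to splice plastid introns and which lies inside a tRNA intron, had 1192 and 1728 CPM in otp90. In Col-0 both libraries were at 1325 CPM. The otp90 libraries lay on either side of the Col-0 value, and the log2 fold change was 0.14 (SE 0.50).

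Among small subunit proteins, 13 of 15 models were tested, 4 positive and 9 negative, with a median log2 fold change of −0.06. With 1 library left out it ran from −0.27, without Col-0 replicate 2, to 0.43, without Col-0 replicate 1, at −0.18 and 0.13 without otp90 replicates 1 and 2. The most abundant, rps14, had 3814 and 1497 CPM in otp90 and 2688 and 1442 CPM in Col-0, so the libraries numbered 1 were the high ones in both genotypes. Its log2 fold change was 0.36 (SE 0.63), and −0.00099 when scaled on the photosynthesis genes. The genes read with it had 0.22 (psaA, SE 0.68) and 0.27 (psaB, SE 0.69). At the other end, rps16 (ATCG00050), a small subunit gene with an intron, had 6.49 and 11.7 CPM in otp90 and 10.4 and 16.5 CPM in Col-0.

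The low level of rps16 rested on 8 to 31 counts per library, and its log2 fold change was −0.54 (SE 0.65), with overlapping genotypes and negative ratios in both numbers. The small subunit gene rps18 (ATCG00650) had 69.8 and 55.5 CPM in otp90 and 72.6 and 84.2 CPM in Col-0. Both otp90 libraries lay below both Col-0 libraries, by little for the nearest pair, and the log2 fold change was −0.32 (SE 0.44, adjusted p = 0.9998, edgeR). The remaining small subunit models ran from −0.22 in copy 1 of the rps12 3′ part to 0.18 in rps19. In rps19 the libraries of 1 genotype differed more than the genotypes, at 235 and 133 CPM in otp90 and 245 and 78.4 CPM in Col-0.

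Of the large subunit proteins, 7 of 11 models were tested, 3 positive and 4 negative, with a median of −0.08. Leaving out Col-0 replicate 1 gave 0.43, leaving out otp90 replicate 2 gave 0.08 and leaving out Col-0 replicate 2 gave −0.35. The gene rpl32 (ATCG01020), which lies in the small single-copy region, had 189 and 179 CPM in otp90 and 145 and 151 CPM in Col-0. Both otp90 libraries lay above both Col-0 libraries, and replicates were close, with means of 184 ± 6.90 and 148 ± 4.32 CPM (SD, n = 2 each). The log2 fold change of rpl32 was 0.32 (SE 0.43, adjusted p = 0.9998, edgeR), and −0.013 when scaled on the photosynthesis genes. Its standard error draws on a spread shared over all genes, not on these libraries alone.

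The gene rpl16 (ATCG00790), which contains an intron and is the most abundant large subunit member, had 729.7 and 649.8 CPM in otp90 and 1248 and 513 CPM in Col-0. Its neighbour rpl14 (ATCG00780) had 219.98 and 228 CPM in otp90 and 373 and 212 CPM in Col-0. In both, Col-0 replicate 1 was the single high library and Col-0 replicate 2 the lowest, so the genotypes overlapped. The log2 fold changes were −0.35 (SE 0.56) for rpl16 and −0.38 (SE 0.48) for rpl14, and they were 0.44 and 0.10 without Col-0 replicate 1. The other large subunit members, rpl20, rpl22, rpl33 and rpl36, lay between −0.23 and 0.14.

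Of the large subunit genes, rpl14, rpl16, rpl22 and rpl36 belong to the long cluster from rpl23 to rpoA, of which 9 of 11 genes were tested. Within the libraries numbered 1, 8 of the 9 had a negative log2 ratio, with a median of −0.40, and within those numbered 2, 7 of the 9 had a positive one, with a median of 0.34. The small subunit gene rps3 went from −0.75 in number 1 to 0.72 in number 2, and the large subunit gene rpl22 from −0.40 to 0.85. The ratio of rpl36 was positive in both, and that of rpoA was negative in both. The genotype difference of this cluster thus changed sign with the pair of libraries, and its overall median was −0.09. With 1 library left out that median ran from −0.43, without Col-0 replicate 2, to 0.44, without Col-0 replicate 1, and it was −0.27 without otp90 replicate 1.

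**Figure D4:**
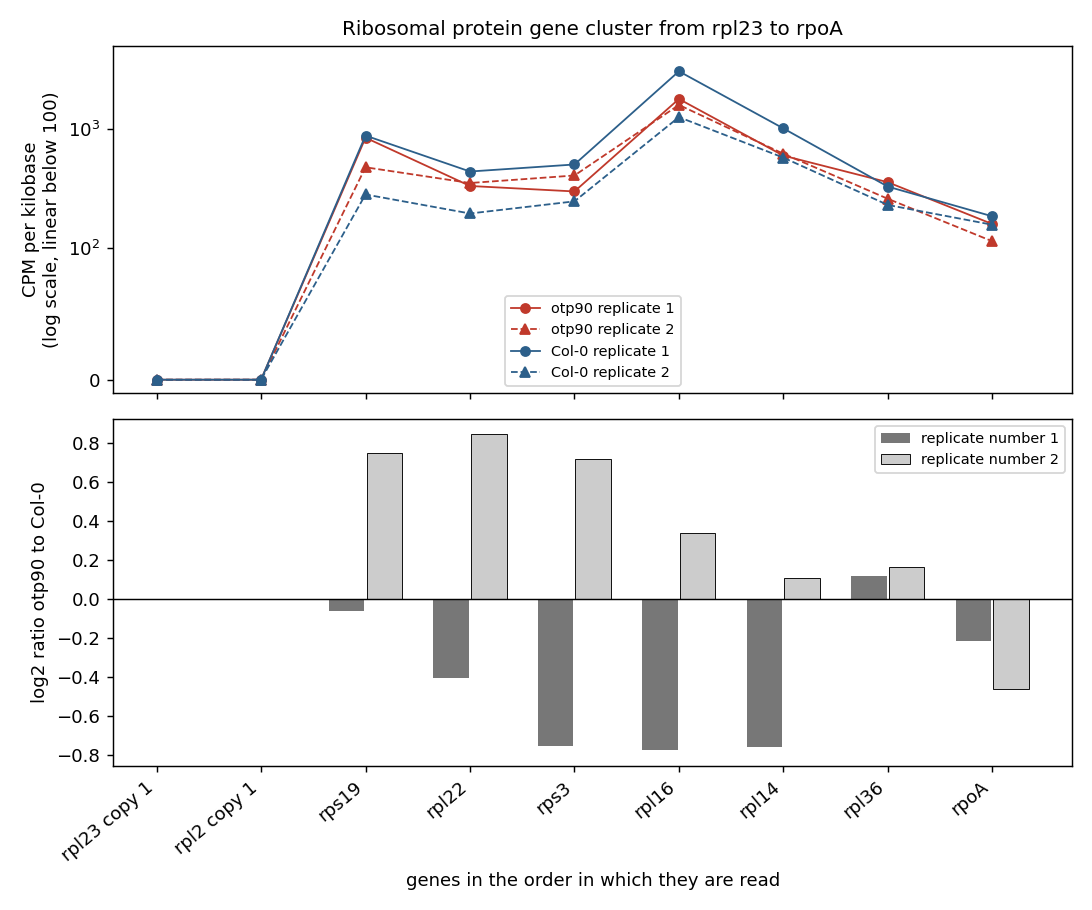
Genes of the rpl23 to rpoA cluster in the order in which they are read, with the level in each library above (CPM per kilobase, log scale, linear below 100) and the log2 ratio of otp90 to Col-0 below, as bars for the libraries numbered 1 and numbered 2. The bars lie on opposite sides of 0 from rps19 to rpl14, at −0.75 and 0.72 in rps3, and on the same side in rpl36 and rpoA.

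Across all 32 tested members, 10 had a positive log2 ratio in number 1, with a median of −0.08, and 24 in number 2, with a median of 0.20, beside 50.2% of all genes in each. Of the 32, 8 were positive in both, 6 were negative in both and 18 had opposite signs. The opposite signs made up 56.25% of the members and 54.0% of all genes tested. When each library was left out in turn, 24 of the 32 fold changes took the other sign at least once and 8 did not. What the replicate number stands for is not said in the labels.

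**Figure D5:**
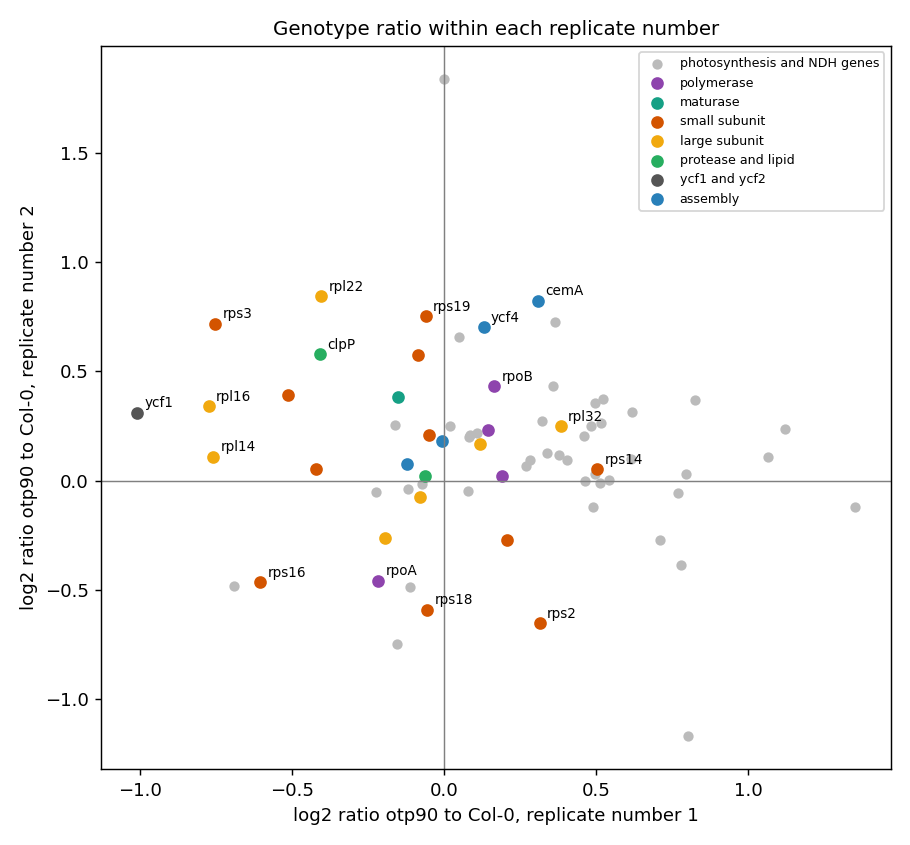
Log2 ratio of otp90 to Col-0 for tested members within the libraries numbered 1 (x axis) and within those numbered 2 (y axis), coloured by role, with the photosynthesis and NDH genes in grey. Members with opposite signs lie in the upper left and lower right, the 8 that are positive in both in the upper right, and those negative in both in the lower left.

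The protease subunit gene clpP (ATCG00670), the plastid-encoded part of the proteolytic core of Clp, had 527 and 510 CPM in otp90 and 699 and 341 CPM in Col-0. The otp90 libraries lay between the Col-0 libraries, and the log2 fold change was −0.0046 (SE 0.51). For accD (ATCG00500), which encodes the beta subunit of the carboxyltransferase of acetyl-CoA carboxylase, the values were 384 and 299 CPM in otp90 and 400.5 and 294 CPM in Col-0. Its log2 fold change was −0.03 (SE 0.46), with a 95% interval from −1.07 to 1.02. Differences inside that interval are compatible with these libraries, and its ends are not a limit of detection.

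The reading frame ycf1 (ATCG01130), which encodes a protein assigned to the import machinery of the inner envelope, had 142 and 244 CPM in otp90 and 287 and 197 CPM in Col-0. Its ratio was −1.01 in the libraries numbered 1 and 0.31 in those numbered 2, the lowest of the 32 members in number 1. The log2 fold change was −0.32 (SE 0.49), and the genotypes overlapped.

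Of the 4 assembly genes, 3 had positive fold changes and none was called. Their median log2 fold change was 0.22, but −0.07 when scaled on the photosynthesis genes, beside −0.32 over all genes on that scaling. Without Col-0 replicate 2 the median of the assembly genes was −0.0088. It was 0.15 and 0.36 without otp90 replicates 1 and 2, and 0.62 without Col-0 replicate 1. The gene cemA (ATCG00530), which encodes an inner envelope protein, had 328 and 275 CPM in otp90 and 265 and 155 CPM in Col-0. Both otp90 libraries lay above both Col-0 libraries, with little room between the nearest pair, and cemA had the smallest unadjusted p of the members, 0.301 in edgeR's quasi-likelihood test (adjusted p = 0.9998). Its log2 fold change was 0.52 (SE 0.47), with a 95% interval from −0.56 to 1.60. Next to cemA, the photosystem I assembly gene ycf4 (ATCG00520) had 883 and 721 CPM in otp90 and 807 and 443 CPM in Col-0, which overlap, and a log2 fold change of 0.36 (SE 0.51).

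Both genes are read in 1 cluster that starts with accD at −0.03 and continues with psaI, a photosystem I subunit gene, at 0.65 (SE 0.48), and ends with petA, the cytochrome f gene, at 0.19 (SE 0.50). The gene ycf3 (ATCG00360), another photosystem I assembly factor, had 214 and 151 CPM in otp90 and 233 and 143 CPM in Col-0, with a log2 fold change of −0.05 (SE 0.48). For ccsA (ATCG01040), which attaches heme to c-type cytochromes, the values were 125 and 120.5 CPM in otp90 and 125 and 106 CPM in Col-0. The libraries of ccsA were close together, the genotypes overlapped and the log2 fold change was 0.08 (SE 0.43). It was −0.22 when scaled on the photosynthesis genes and −0.027 without a scaling factor.

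The photosynthesis and NDH genes of the same genome, for comparison, had 36 positive and 7 negative values among 43 tested, with a median log2 fold change of 0.29 and 0 calls. That median was −0.08 and 0.66 when otp90 replicates 1 and 2 were left out in turn, and 0.51 and 0.08 when Col-0 replicates 1 and 2 were. Scaled on those genes, 2 of the 32 members were positive and 30 negative, with a median of −0.28. On that scaling the median of all genes was −0.32. Without a scaling factor, the members' median was −0.14 and that of all genes −0.12.

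The nuclear partners of these genes were also without calls. Of 28 nuclear genes for plastid ribosomal proteins, 5 were positive and 23 negative, with a median log2 fold change of −0.26, beside −0.07 for the 20 tested ribosomal models of the plastid genome. Their genotypes did not overlap in 39.3%, beside 25.9% of all genes. In this list PRPL11, a large subunit protein gene, had 44.6 and 46.1 CPM in otp90 and 64.5 and 100.2 CPM in Col-0, with a log2 fold change of −0.86 (SE 0.46). Each otp90 library of PRPL11 lay below each Col-0 library, and Col-0 replicate 2 was the highest.

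The list's median was −0.03 in the libraries numbered 1 and −0.46 in those numbered 2. It was negative under each scaling tried, but some scalings lowered all genes. Without a scaling factor it was −0.40, beside −0.12 over all genes, and scaled on the photosynthesis genes −0.64, beside −0.32. Scaled on nuclear genes only, it was −0.24, beside 0.0075 over all genes. The median of this list was −0.01 without Col-0 replicate 2, with 13 positive and 15 negative, and −0.52 without Col-0 replicate 1. Of the 11 tested genes for proteins that associate with PEP, 5 were positive and 6 negative, with a median of −0.04. That median was −0.28 with a replicate block, 0.29 when otp90 replicate 1 was left out and −0.66 when otp90 replicate 2 was. It was −0.22 when Col-0 replicate 1 was left out and 0.07 when Col-0 replicate 2 was. FLN1, a kinase-like protein of the PEP complex, had 39.8 and 76.6 CPM in otp90 and 41.3 and 29.8 CPM in Col-0, so otp90 replicate 2 stood alone, and its log2 fold change was 0.71 (SE 0.50). PTAC14, a SET-domain protein of that complex, had 5.68 and 18.9 CPM in otp90 and 20.4 and 23.5 CPM in Col-0, with −0.80 (SE 0.65). Here otp90 replicate 1 stood alone at a low level, and the ratio was −1.67 in number 1 and −0.30 in number 2.

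Of 10 nuclear Clp subunits and chaperones, 2 were positive and 8 negative, with a median of −0.15. AT1G09130, listed with the Clp protease, had 12.2 and 7.77 CPM in otp90 and 16.8 and 36.2 CPM in Col-0, with a log2 fold change of −1.42 (SE 0.61). Its unadjusted p was 0.0478 and its adjusted p 0.9998 in edgeR, and both otp90 libraries lay below both Col-0 libraries. CLPP4, a subunit of the proteolytic core, had 25.2 and 21.1 CPM in otp90 and 37.7 and 51.2 CPM in Col-0, with −0.94 (SE 0.47), while clpP of the plastid was at −0.0046. The median of the Clp list was −0.34 and 0.08 on leaving out otp90 replicates 1 and 2 in turn, and −0.38 and −0.03 on leaving out the Col-0 replicates in that order.

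Of the 4 nuclear subunits of the plastid acetyl-CoA carboxylase, 3 were tested and all 3 were negative, with a median of −0.30. CAC1, a biotin carrier subunit, had 9.74 and 7.22 CPM in otp90 and 16.04 and 9.06 CPM in Col-0, with a log2 fold change of −0.58 (SE 0.65). CAC2, the biotin carboxylase, had 88.5 and 152 CPM in otp90 and 179 and 112 CPM in Col-0, with −0.28 (SE 0.49). In CAC2 the sign differed between numbers, and the median of the 3 genes was 0.12 when Col-0 replicate 1 was dropped, −0.78 when otp90 replicate 1 was dropped and −0.70 when Col-0 replicate 2 was dropped.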

How the data were processed

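Read counts per gene model were deposited by the authors, who made them with sam2pkm after removing reads with tied best alignments, per the file headers. The deposited files also give the gene model length in bases, another value used here for levels per kilobase. TAIR10 is named as the build, per the submitters' processing notes. The aligner, and any use of strand in counting, are not given in the sources used here. Reads of overlapping or antisense genes may thus be mixed, as over the 16 bases that rps3 and rpl22 share.

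The 15 rRNA gene models (4.96% to 7.69% of counts) were left out. Genes were kept by filterByExpr (minimum count 10), scaled by TMM and compared over the 4 libraries with the two-sided quasi-likelihood test of edgeR 4.0.16 in R 4.3.3, without a replicate block, called at a Benjamini-Hochberg adjusted p of 0.05. The SE was taken from the log2 fold change and the F statistic. DESeq2 1.42.0, other scalings, no filter, rRNA kept, a replicate block and leaving out each library were alternatives. Ratios within a replicate number used a prior count of 2. Tests were tested on simulated data. Libraries of 1 genotype differed by more than counting noise.

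Symbols were matched by RefSeq TAIR10.1 (40 members, 38 of equal length), and no coordinates are given because the builds differ. Full statistics are given for the tested members that are not ribosomal proteins and for the 6 ribosomal members with the smallest p, and for up to 2 genes of each nuclear list. A few genes stay in the fits and counts but are not reported here by name. Members and lists were chosen with earlier results of these data known.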

Additional observations from a re-analysis of the deposited data

How the results depend on the processing

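No member was called under any alternative. Over all genes, the count of 0 ranged from 0 to 33 when 1 library was left out, at 24 calls without otp90 replicate 1, 30 calls without Col-0 replicate 1 and 33 calls without Col-0 replicate 2. The median of the members ranged from −0.22 to 0.43 in those fits and was −0.28 when scaled on plastid photosynthesis genes. The lone library of a genotype is there assumed to vary like the others, and the cause of these shifts was not tested. With 2 libraries a genotype and 8 to 6704 reads per tested gene, the printed intervals are wide. Differences inside them are compatible with these libraries, and the size of difference that could be detected is not given here.

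The replicate block gave 0 calls among members and over all genes and a median of −0.02. Deviations of same-numbered libraries correlated at 0.224, and the labels do not say what the numbers stand for, so whether they pair the libraries is not known.

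Scaling on the photosynthesis genes reversed rpoB (−0.024), rpoC1 (−0.15), rpoC2 (−0.21), matK (−0.14), rps14 (−0.00099), rps4 (−0.25), rps19 (−0.092), the rps12 5′ part (−0.12), rpl36 (−0.18), rpl22 (−0.12), rpl32 (−0.013) and ccsA (−0.22). That scaling moved the median of all genes from −0.01 to −0.32, so small positive values turned negative with it. No scaling factor, with a median of −0.12 over all genes, reversed rpoC2 (−0.0011), rps4 (−0.058) and ccsA (−0.027). The value near 0 of clpP turned to 0.014 with RLE factors and with DESeq2, 0.0052 with TMM on nuclear genes and 0.086 with the replicate block. Leaving out 1 library gave log2 fold changes on both sides of 0 in 24 members, among them rpoC1 (−0.24 to 0.68), rpoC2 (−0.32 to 0.51), matK (−0.13 to 0.40), rps2 (−0.77 to 0.46), rps14 (−0.44 to 0.90), rps4 (−0.22 to 0.43), rps3 (−0.50 to 0.54), rps19 (−0.41 to 1.24), rps15 (−0.16 to 0.13), the rps12 5′ part (−0.27 to 0.82), copy 1 of its 3′ part (−0.38 to 0.016), copy 2 (−0.59 to 0.50), rpl20 (−0.68 to 0.56), rpl36 (−0.088 to 0.43), rpl14 (−0.72 to 0.10), rpl16 (−0.84 to 0.44), rpl22 (−0.35 to 0.83), clpP (−0.42 to 0.62), accD (−0.22 to 0.23), ycf1 (−0.75 to 0.037), ycf3 (−0.35 to 0.37) and ccsA (−0.020 to 0.23).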
